A study of Homo sapiens with 4 samples.

Results

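Glutathione, the main small thiol of the cell, and the enzymes that reduce peroxides and quinones were followed upon CEBPG knockdown through 10 genes chosen by name. They are SLC7A11, GCLC, GCLM, GSS, GSR, CHAC1, NQO1, HMOX1, TXNRD1 and SRXN1. Of the 10, 9 were present among 16504 gene symbols and all 9 passed a filter on low values. HMOX1, the heme oxygenase of this set, was not analysed here. RNA-seq had been performed on 2 control libraries, labelled NC and given as cells with CEBPG present, and on 2 CEBPG knockdown libraries, labelled CEBPG3. All 4 carry the label of the NB4 cell line, a human acute promyelocytic leukemia line. In the methods of the study, cells were infected with lentivirus carrying a short hairpin RNA (shRNA) in the pLKO.1-puro vector and selected with puromycin as stable lines. NC was read as the control shRNA, and the number in CEBPG3 was read as hairpin 3, so the knockdown rests on 1 hairpin. No label says whether libraries 1 and 2 of a group came from separate cultures, and p-values measure only the spread between these libraries.

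Cystine enters the cell through xCT, the transporter encoded by SLC7A11, and is reduced to the cysteine used for glutathione. GCLC and GCLM form glutamate-cysteine ligase, GSS completes the tripeptide, GSR recycles the oxidised form and CHAC1 degrades the reduced form. Many of these genes are induced by NRF2 (gene NFE2L2), a transcription factor that KEAP1 holds down in unstressed cells and that binds antioxidant response elements (AREs) with small MAF proteins. SLC7A11 and CHAC1 are also known targets of ATF4, the stress factor with which CEBPG forms dimers on C/EBP-ATF response elements (CAREs).

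Expression was given as FPKM, fragments per kilobase of transcript scaled to the mapped fragments of a library, so that levels of different genes could be set side by side. Read depth was unknown. CEBPG itself was at 17.1 and 18.1 FPKM in controls and at 6.91 and 7.96 FPKM upon knockdown, 42.2% of the control mean. The labelled cell type was read against markers. Of 20 erythroid markers, 16 were over 10 FPKM in all 4 libraries, and their summed level was 8316 to 8798 FPKM in the control and 9215 to 9775 FPKM in the knockdown libraries. Of 18 tested, 3 were called higher and 3 lower, beside 10.9% higher and 9.99% lower of all genes tested. AHSP and SLC4A1 stayed under 1 FPKM throughout. Of 9 granule markers of promyelocytes 5 were read, and AZU1, PRTN3 and MS4A3 were under 1 FPKM in every library, as were 7 of 11 myeloid surface and regulator genes. The granule genes above that level were LYZ, at 20.1 and 18.1 FPKM in controls and 15 and 15.5 FPKM upon knockdown (called lower), and CFD, at 8.59 and 7.63 and then 10.9 and 11 FPKM (called higher). The myeloid factor SPI1 was at 15.2 to 17.2 FPKM and CD33 at 4.31 to 9.77 FPKM over the 4 libraries. The sums of these 2 lists were 27.1 to 29.8 and 29.7 to 31.7 FPKM in the control libraries and 27.0 to 27.8 and 36.7 to 37.1 FPKM in the knockdown libraries. The erythroid levels and the granule genes under 1 FPKM go against the label of a promyelocytic line, so the libraries are called by their labelled group alone, and the part of these markers in the results was not tested. In bulk RNA, fewer cells of a type and less RNA per cell cannot be told apart.

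Sequence before the start site was read for the genes of the set. RefSeq promoter entries (GRCh38.p14) were matched for 6 of the 10 genes, in 7 windows, and the 250 bases before the start were searched on both strands for the ARE core TGACNNNGC, the CARE TGATGNAA and the CCAAT box CCAAT. Of 35116 such windows of all genes, 10.9% held the ARE core, 3.14% the CARE and 32.0% the CCAAT box. The ARE core was found in both windows of TXNRD1 and in GCLM, the CARE in CHAC1 alone of the 6 genes, and neither motif in GCLC, NQO1 or SRXN1. These matches describe letters within 250 bases of a start and say nothing of binding. TXNRD1 and SRXN1, which rose upon knockdown, and GCLM, whose level was not distinguished from that of the control, are shown as the 250 bases before the start, 5′ to 3′ on the strand of the gene. Capitals mark matches to any of the 3 motifs.

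TXNRD1 first window (chr12:104215529-104215778, plus strand): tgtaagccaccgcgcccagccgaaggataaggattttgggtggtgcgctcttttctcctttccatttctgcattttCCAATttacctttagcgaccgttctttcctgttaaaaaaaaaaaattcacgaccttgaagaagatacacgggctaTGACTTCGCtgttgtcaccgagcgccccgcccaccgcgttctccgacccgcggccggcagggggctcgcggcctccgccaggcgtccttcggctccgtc

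SRXN1 (chr20:653201-653450, minus strand): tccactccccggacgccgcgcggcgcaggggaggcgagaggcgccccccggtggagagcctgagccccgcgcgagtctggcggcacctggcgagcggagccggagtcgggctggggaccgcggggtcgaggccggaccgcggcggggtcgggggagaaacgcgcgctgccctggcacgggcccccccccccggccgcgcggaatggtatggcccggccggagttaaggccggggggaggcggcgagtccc

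GCLM (chr1:93909431-93909680, minus strand): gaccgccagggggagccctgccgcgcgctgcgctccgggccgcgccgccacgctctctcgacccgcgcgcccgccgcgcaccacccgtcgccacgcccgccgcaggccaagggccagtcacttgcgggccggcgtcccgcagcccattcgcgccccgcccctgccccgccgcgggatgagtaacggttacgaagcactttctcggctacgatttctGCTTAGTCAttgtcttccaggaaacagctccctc

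In the TXNRD1 window the capitals are a CCAAT box from 174 to 170 bases and an ARE core from 99 to 91 bases before the start. In GCLM the ARE core lies on the other strand from 34 to 26 bases before the start, and SRXN1 has no capitals. In the windows of GCLM and NQO1, 26 and 151 of the 250 bases lie within exons annotated in GENCODE 44. The second TXNRD1 window and the CHAC1 window lie wholly within exons annotated in GENCODE 44, so only 30 bases around the ARE core of the former and the CARE of the latter are given, with that motif in capitals. Both are read here on the strand opposite to the motif, as TGACAAAGC in TXNRD1 and TGATGCAA in CHAC1. The CHAC1 window also held 3 CCAAT boxes and the second TXNRD1 window 1.

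TXNRD1 second window (chr12:104286920-104286949, plus strand): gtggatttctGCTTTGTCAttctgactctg

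CHAC1 (chr15:40953251-40953280, plus strand): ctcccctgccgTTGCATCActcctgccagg

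Upon CEBPG knockdown, 3 of the 9 genes rose and none fell. The 3 were TXNRD1, SRXN1 and NQO1, which reduce thioredoxin, overoxidised peroxiredoxins and quinones and are widely used as readouts of NRF2. Each was 1.27 to 1.35 times its control mean. The genes of cystine import and of glutathione synthesis, recycling and breakdown did not pass the test. Genes were compared in limma on log2(FPKM + 1), with p-values adjusted over all 10968 genes tested and an adjusted p under 0.05 named a call. Of all genes tested, 20.9% were called, 10.9% higher and 9.99% lower, against 3 higher and 0 lower among these 9. At an unadjusted p under 0.05 the counts were 5 of the 9 and 4057 of the 10968 genes tested. The groups did not overlap in 8 of the 9, against 64.8% of all genes tested. The median log2 fold change of the 9 was 0.19, beside 0.015 over all genes tested, and 8 of the 9 values were above 0. Without knockdown 1 or without knockdown 2, 0 of the 9 were called (limma), and calls over all genes were 809 and 865. Such a fit holds 1 library against 2, takes the spread from the pair and assumes that the lone library varies alike. In these fits the 3 log2 fold changes kept their sign, at 0.32 to 0.44. With no filter on low values TXNRD1 kept its call, while NQO1 (adjusted p = 0.0703) and SRXN1 (0.0672) lost theirs in limma.

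**Figure D1:**
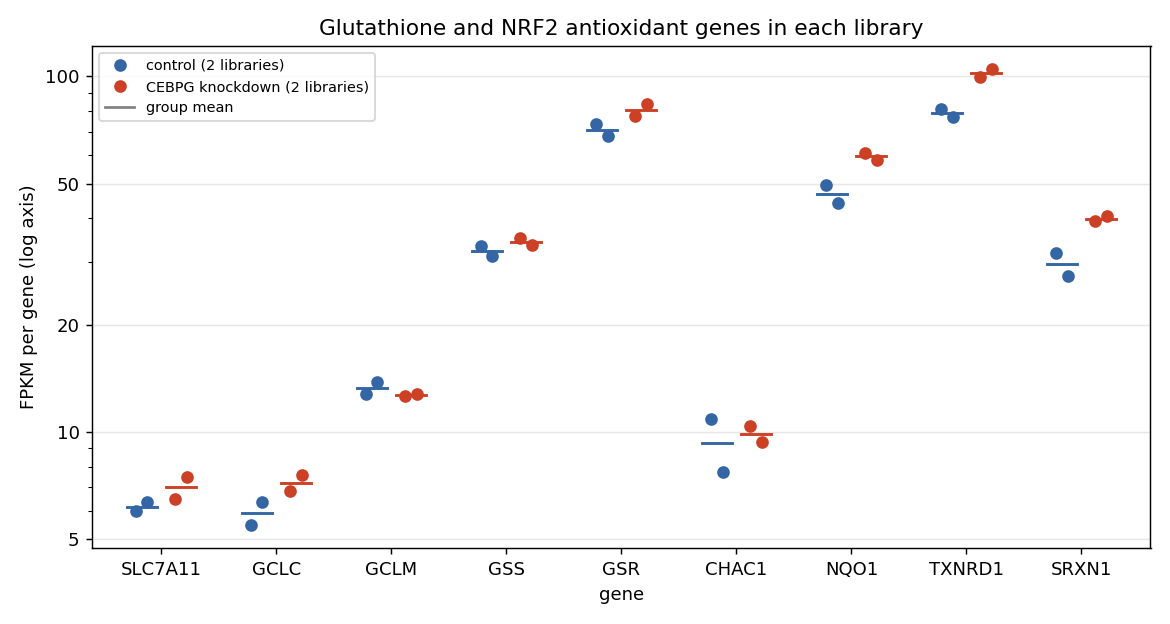
Each point is the FPKM of a gene (log axis) in 1 library, with control libraries in blue, CEBPG knockdown libraries in red and a bar at the group mean. Both knockdown libraries lie above both control libraries for TXNRD1, SRXN1 and NQO1, while the groups overlap for CHAC1.

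TXNRD1, the cytosolic thioredoxin reductase, lies on chromosome 12 at 104215779 to 104350307 of the plus strand, as annotated in GENCODE 44 (GRCh38). The controls held 81.0 and 76.8 FPKM and the knockdown libraries 99.8 and 105.1 FPKM. Both knockdown libraries were higher, and the gap between the groups exceeded that within either group. The mean rose from 78.9 ± 2.97 to 102.5 ± 3.71 FPKM (SD, n = 2 each), a log2 fold change of 0.37 (SE 0.061, limma, adjusted p = 0.00883). The adjusted p was 0.0506 without knockdown 1 and 0.0771 without knockdown 2. TXNRD1 had the highest level of the 9, above that of 94.0% of genes tested.

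SRXN1, sulfiredoxin, restores peroxiredoxins whose catalytic cysteine has been overoxidised. The gene lies on chromosome 20 at 646615 to 653200 on the minus strand. It was at 31.8 and 27.5 FPKM with control shRNA against 39.2 and 40.5 FPKM with CEBPG shRNA. The knockdown libraries were close to each other and both higher than the control libraries, which lay further apart. The mean rose from 29.6 ± 3.05 to 39.9 ± 0.946 FPKM (SD, n = 2 each), with a log2 fold change of 0.42, the highest among the 9 (SE 0.079, limma, adjusted p = 0.0141). Without control 2 this value was 0.32 and without control 1 it was 0.52, both called, and the adjusted p was 0.0624 without knockdown 1 and 0.0754 without knockdown 2.

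NQO1, a quinone reductase, lies on chromosome 16 at 69706996 to 69726668 on the minus strand. The controls held 49.5 and 44.1 FPKM and the knockdown libraries 60.9 and 58.4 FPKM, with both knockdown libraries higher. The mean rose from 46.8 ± 3.77 to 59.6 ± 1.72 FPKM (SD, n = 2 each), a log2 fold change of 0.34 (SE 0.071, limma, adjusted p = 0.0189). As with the other 2 genes, the call was lost without knockdown 1 (adjusted p = 0.119) or knockdown 2 (0.0745). The value was 0.26 without control 2 and 0.43 without control 1.

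Glutamate-cysteine ligase, the first and limiting step of glutathione synthesis, was read through its catalytic subunit GCLC and its modifier subunit GCLM. GCLC (chromosome 6, 53497341 to 53616970, minus strand) was at 5.47 and 6.37 FPKM in the 2 controls, compared with 6.84 and 7.59 FPKM after knockdown. The knockdown libraries were both higher, but the gap between these totals was narrower than the spread within either group. The lesser transcript NM_001197115 was at 0 and 1.07 FPKM in controls and at 0.188 and 0 FPKM upon knockdown. The main transcript NM_001498 was at 5.47 and 5.3 FPKM and then 6.66 and 7.59 FPKM. It was not called either (limma, log2 fold change 0.35, adjusted p = 0.203 among transcripts). The log2 fold change of the total was 0.25 (95% confidence interval 0.028 to 0.47), not called in limma (adjusted p = 0.103). It was 0.16 without control 1 and 0.34 without control 2. GCLM (chromosome 1, 93885199 to 93909456, minus strand) was at 12.8 and 13.8 FPKM in controls and at 12.6 and 12.8 FPKM upon knockdown. Its log2 fold change was -0.064, with an interval from -0.22 to 0.097 (limma, adjusted p = 0.533), the only value below 0 among the 9. The GCLC level was 0.427 and 0.462 times the GCLM level within the control libraries and 0.545 and 0.594 times within the knockdown libraries. This ratio, which does not depend on library scaling, was higher in both knockdown libraries and was not tested.

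GSS, glutathione synthetase (chromosome 20, 34928432 to 34956027, minus strand), was at 33.4 and 31.2 FPKM with control shRNA against 35.1 and 33.6 FPKM with CEBPG shRNA. The groups were separated by less than the spread within either of them. The log2 fold change was 0.085, with a 95% confidence interval from -0.066 to 0.24 (limma, adjusted p = 0.372). GSR, glutathione reductase, which returns glutathione disulfide to its thiol form with NADPH, lies on chromosome 8 at 30678066 to 30727846 on the minus strand. It was at 73.3 and 67.8 FPKM in the 2 controls, compared with 77.4 and 83.6 FPKM after knockdown, the second highest level of the set. Both knockdown libraries were higher, with a log2 fold change of 0.19 and an interval from 0.026 to 0.35, which was not called (limma, adjusted p = 0.0951).

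SLC7A11 and CHAC1 stand at the entry and the exit of the pathway, and both are known ATF4 targets. SLC7A11 (chromosome 4, 138164097 to 138242349, minus strand) was at 5.99 and 6.35 FPKM in controls and at 6.49 and 7.50 FPKM upon knockdown. The 2 groups lay next to each other, and the log2 fold change of 0.16, with a 95% confidence interval from -0.053 to 0.36, was not called (limma, adjusted p = 0.244). It was 0.25 without knockdown 1 and 0.064 without knockdown 2. SLC3A2, the heavy chain that brings xCT to the membrane, was at 191.3 and 171.5 FPKM with control shRNA against 199.1 and 183.9 FPKM with CEBPG shRNA. These groups overlapped, and the log2 fold change was 0.079 with an interval from -0.10 to 0.26 (limma, adjusted p = 0.485), or 0.00044 to 0.16 with 1 library left out. The SLC7A11 level was 0.0313 and 0.037 times that of SLC3A2 within the controls and 0.0326 and 0.0408 times within the knockdown libraries, which overlapped. CHAC1 (chromosome 15, 40952962 to 40956512, plus strand) was at 10.9 and 7.73 FPKM in the 2 controls, compared with 10.4 and 9.36 FPKM after knockdown. Here the knockdown libraries lay between the control libraries, and the log2 fold change was 0.090 with an interval from -0.24 to 0.43 (limma, adjusted p = 0.683). Its direction turned on the control library used, with -0.13 without control 2 and 0.31 without control 1.

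**Figure D2:**
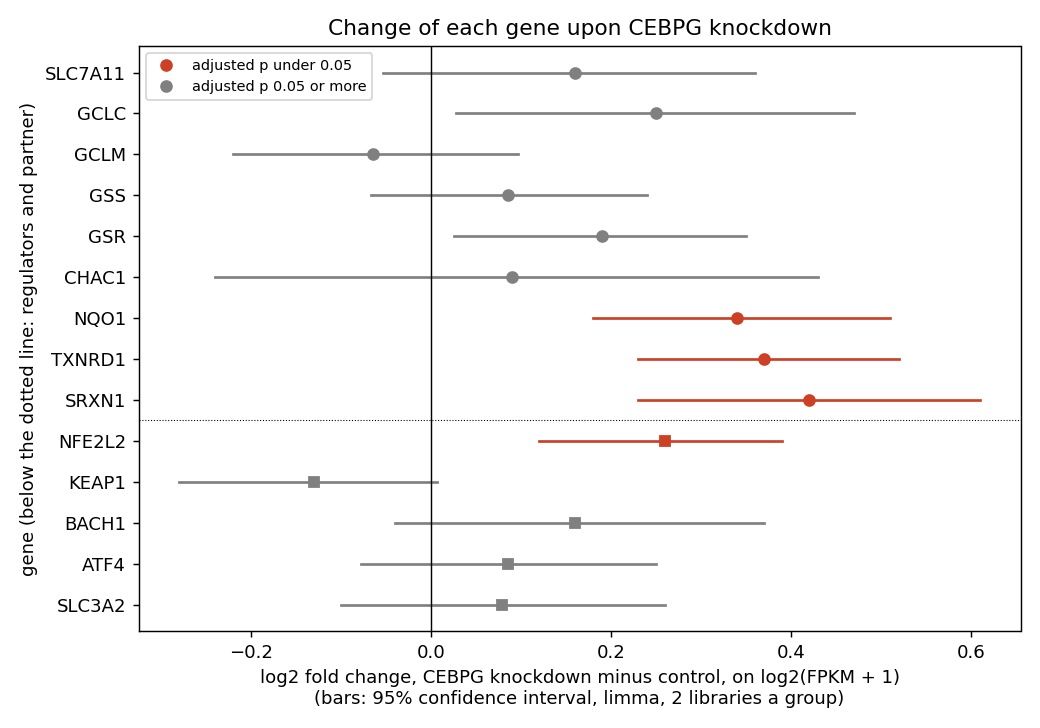
Points give the log2 fold change of each gene (CEBPG knockdown minus control, on log2(FPKM + 1)) and bars its 95% confidence interval from limma, with 2 libraries a group; regulators and the SLC7A11 partner stand below the dotted line. The values of NQO1, TXNRD1, SRXN1 and NFE2L2, in red, had an adjusted p under 0.05, and the interval of CHAC1, from -0.24 to 0.43, is the widest.

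Levels spanned from 5.92 FPKM for GCLC to 78.9 FPKM for TXNRD1 in the control means. The order from the top was TXNRD1, GSR, NQO1, GSS, SRXN1, GCLM, CHAC1, SLC7A11 and GCLC. GSS and SRXN1 overlapped in the control libraries, as did SLC7A11 and GCLC, so that their order within each pair was not separated from the replicate spread. In the knockdown libraries SRXN1 (39.2 and 40.5 FPKM) lay above GSS (35.1 and 33.6 FPKM), the reverse of the control means, and SLC7A11 and GCLC overlapped again. The pathway genes of synthesis thus differed widely in level, with GSS at 32.3 FPKM and GCLC at 5.92 FPKM in the control means, on a scale that is per length of transcript.

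Transcripts were read where a gene was listed with more than 1. The 9 genes held 21 transcripts, of which 15 reached the filter. None of the 15 was called in limma when transcripts were tested in place of genes (lowest adjusted p = 0.110), and 8 had an unadjusted p under 0.05. Among 15795 transcripts tested, 0.158% were called and 3213 had an unadjusted p under 0.05. SRXN1, listed with a single transcript (NM_080725), had the same log2 fold change of 0.42 in both fits, with an adjusted p of 0.134 among transcripts (limma).

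The TXNRD1 total was carried by NM_182729, at 47.6 and 42.6 FPKM in controls and at 55.8 and 64.2 FPKM upon knockdown, and by NM_003330, at 20.4 and 22 FPKM and then 31.1 and 28.0 FPKM. Both were higher in each knockdown library. NM_182743 was also higher, at 5.68 and 6.25 FPKM with control shRNA against 7.38 and 8.54 FPKM with CEBPG shRNA, whereas NM_182742 was lower, at 6.34 and 5.78 FPKM and then 5.53 and 4.14 FPKM. The NQO1 transcript NM_000903 held 79.1% and 81.2% of the gene in the control and 75.8% and 76.9% in the knockdown libraries. NM_001025434 was at 9.03 and 6.25 FPKM in the 2 controls, compared with 12.9 and 12.0 FPKM after knockdown, so that both major NQO1 transcripts were higher.

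The GCLM transcripts lay on opposite sides of their control levels. NM_002061 was at 10.6 and 12.3 FPKM in controls and at 8.68 and 9.80 FPKM upon knockdown, and NM_001308253 at 2.20 and 1.48 FPKM and then 3.89 and 2.97 FPKM. The groups did not overlap for either transcript, and the log2 fold changes of -0.28 and 0.64 were not called (limma, adjusted p = 0.288 and 0.223). The GCLM total was thus the sum of a lower and a higher value. A division of reads between transcripts of 1 gene is an estimate, and its error was unknown here. GSR was carried almost wholly by NM_000637, with 97.3% to 97.9% of its level in all 4 libraries.

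**Figure D3:**
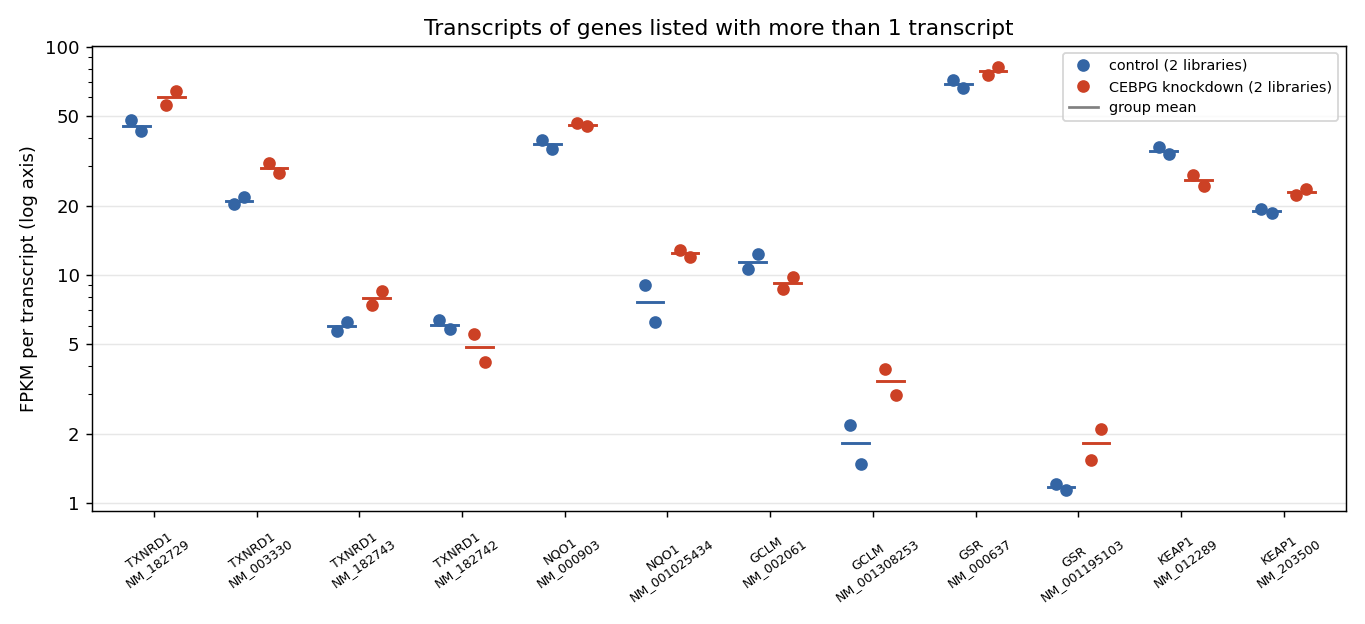
Points give, for transcripts averaging 1 FPKM or more, the FPKM (log axis) in each library, blue for control and red for CEBPG knockdown, with bars at group means. For GCLM and KEAP1 one transcript is lower and the other higher in both knockdown libraries, while the major transcripts of TXNRD1, NQO1 and GSR are higher.

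The regulators of the set were read next. NFE2L2, which encodes NRF2, was at 41.4 FPKM in each control, compared with 50.8 and 48.6 FPKM upon knockdown. It rose, with a log2 fold change of 0.26 (SE 0.057, limma, adjusted p = 0.0233), and the call was lost without knockdown 1 (adjusted p = 0.166) or knockdown 2 (0.0917), with no filter (0.0511) and without a mean trend (0.0504). KEAP1, the adaptor that presents NRF2 for degradation, was at 55.8 and 52.6 FPKM with control shRNA against 50 and 48.5 FPKM with CEBPG shRNA. Its log2 fold change was -0.13, with a 95% confidence interval from -0.28 to 0.0068 (limma, adjusted p = 0.152). KEAP1 was called lower when columns were scaled to one sum (limma, -0.16, adjusted p = 0.0454). The KEAP1 transcripts, like those of GCLM, lay on opposite sides of control: NM_012289 was at 36.3 and 33.9 FPKM in the 2 controls, compared with 27.4 and 24.6 FPKM after knockdown, and NM_203500 at 19.4 and 18.7 FPKM and then 22.5 and 23.9 FPKM. The NFE2L2 transcripts differed more between the controls than their total did. NM_006164 was at 34 and 39.2 FPKM in controls and then 45.9 and 47.8 FPKM. NM_001145412 was at 7.41 and 1.7 FPKM and then 4.08 and 0.824 FPKM. Within a library the NFE2L2 level was 0.742 and 0.787 times that of KEAP1 in the control and 1.02 and 1.00 times in the knockdown libraries.

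BACH1, a repressor that competes with NRF2 at AREs, was at 8.79 and 9.69 FPKM in controls and at 9.81 and 11.1 FPKM upon knockdown. Its log2 fold change was 0.16, with an interval from -0.040 to 0.37 (limma, adjusted p = 0.215). The main BACH1 transcript, NM_001186, was at 6.83 and 8.54 FPKM and then 7.55 and 6.84 FPKM, with overlapping groups. ATF4 was at 231.6 and 211.0 FPKM with control shRNA against 240.9 and 228.3 FPKM with CEBPG shRNA, with overlapping groups (limma, log2 fold change 0.085, interval -0.078 to 0.25, adjusted p = 0.409). Neither was distinguished from its control level, and with 1 library left out the values ranged from 0.079 to 0.25 for BACH1 and from 0.018 to 0.15 for ATF4. Of 14 tested genes listed as NRF2 regulators and partners, 2 rose and 2 fell, with a median log2 fold change of -0.033. Calls were 28.6% of this list and 20.9% of all genes tested. Besides NFE2L2, MAFG, a small MAF partner of NRF2, rose (log2 fold change 0.21, adjusted p = 0.0412, limma). The MAFG call was lost in limma with no filter (adjusted p = 0.0597) and without a mean trend (0.0751). With 1 library left out the MAFG value was 0.20 to 0.23. CUL3, the ubiquitin ligase scaffold that acts with KEAP1, fell by 0.35 (adjusted p = 0.0136, limma), and NFE2L1, a related factor, fell by 0.29 (adjusted p = 0.0191, limma).

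Among 24 other tested NRF2 target genes, 10 rose and 3 fell, with a median log2 fold change of 0.24. Calls made up 54.2% of this list, beside 20.9% over all genes tested (10.9% higher and 9.99% lower). SQSTM1, the autophagy receptor that binds KEAP1, was at 79.9 and 73.8 FPKM in the 2 controls, compared with 141.1 and 135.2 FPKM after knockdown. ME1, which makes NADPH from malate, was at 10.8 and 10.2 FPKM and then 18.2 and 19.2 FPKM. These were 1.80 and 1.78 times the control means, with log2 fold changes of 0.84 (limma, adjusted p = 0.000998) and 0.78 (0.00135), larger than that of any of the 9 genes. OSGIN1, a stress-induced growth inhibitor, rose by 0.60 (limma, adjusted p = 0.0473), and its value was 0.32, no longer called, without control 2 (adjusted p = 0.0635, limma) and 0.87 without control 1. Against these, BLVRB, a biliverdin reductase, was at 215.5 and 194.8 FPKM in controls and at 144.1 and 125.0 FPKM upon knockdown and fell by 0.61 (adjusted p = 0.00574, limma). The other genes that passed the test lay between -0.33 and 0.55. The list was written from general knowledge with earlier results of these data known.

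Of 19 tested glutathione peroxidases, transferases and glutaredoxins, 3 rose and 3 fell, with a median of -0.035, while 10.9% of all genes tested were called higher and 9.99% lower. MGST1, a membrane glutathione transferase, rose from 66.5 and 65.2 FPKM to 84.4 and 83.9 FPKM (limma, log2 fold change 0.35, adjusted p = 0.0076). MGST2 (0.26, adjusted p = 0.0358) and GLO1, which clears methylglyoxal (0.26, 0.0211), also rose in limma, while GLRX2, the mitochondrial glutaredoxin, changed by -0.27 (0.0235). GPX4, the peroxidase of membrane lipids, was at 170.8 and 152.2 FPKM with control shRNA against 157.1 and 143.6 FPKM with CEBPG shRNA (limma, adjusted p = 0.382, named after its values were seen).

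Of 13 tested genes of cysteine supply and glutathione turnover, 0 rose and 3 fell (limma; 7 at an unadjusted p under 0.05, beside 4057 of 10968 over all genes), with a median of 0.056 and 8 of the 13 values above 0. The 23.1% called lay near the 20.9% of all genes tested. GGCT, a gamma-glutamylcyclotransferase that splits gamma-glutamyl amino acids, was at 73.5 and 74.8 FPKM in the 2 controls, compared with 60.2 and 60.1 FPKM after knockdown (limma, log2 fold change -0.30, adjusted p = 0.0129). CBS, an enzyme of transsulfuration, changed by -0.21 (limma, adjusted p = 0.0487), and CNDP2, a dipeptidase that splits cysteinylglycine, by -0.22 (0.0414). Both lost their calls in limma with no filter (adjusted p = 0.0786 and 0.0666) and without a mean trend (0.0897 and 0.0643). GGCT kept its call in both settings.

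In the thioredoxin and peroxiredoxin system, 5 of 19 tested genes rose and 2 fell, with a median of 0.045, so that 36.8% were called beside 20.9% of all genes tested. TXNRD2, the mitochondrial counterpart of TXNRD1, rose from 34.7 and 31.9 FPKM to 41.9 and 41.0 FPKM (limma, log2 fold change 0.31, adjusted p = 0.0196). MSRB1, a methionine sulfoxide reductase (0.43, adjusted p = 0.0478), and SESN1, a sestrin (0.35, 0.0375), also rose in limma. Without control 2 their values were 0.27 and 0.24 and were not called (adjusted p = 0.126 and 0.128, limma), and without control 1 MSRB1 was at 0.59. PRDX2, the peroxiredoxin abundant in red cells, was at 240.1 and 217.2 FPKM in controls and at 188.2 and 178.2 FPKM upon knockdown and changed by -0.32 (limma, adjusted p = 0.0229). TXN, the substrate of TXNRD1, was at 212.1 and 195.2 FPKM and then 227.8 and 230.1 FPKM and was not called (limma, adjusted p = 0.102, named after its values were seen). Within a library the TXNRD1 level was 0.382 and 0.393 times that of TXN in controls and 0.438 and 0.457 times upon knockdown. Of 4 tested genes for removal of superoxide and hydrogen peroxide, 0 were called in limma and 1 had an unadjusted p under 0.05, as had 4057 of all 10968 genes.

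The ATF4 stress regulators, the list nearest to CEBPG itself, had 2 genes higher and 4 lower of 11 tested, with a median of 0.11. Calls were 54.5% of this list, beside 20.9% over all genes tested (10.9% higher and 9.99% lower). ATF5 fell from 39.2 and 36.6 FPKM to 15.9 and 17.5 FPKM (limma, log2 fold change -1.14, adjusted p = 0.000638) and PSAT1, of serine synthesis, from 93.7 and 93.3 FPKM to 68.5 and 72.0 FPKM (-0.41, 0.00539). DDIT4, an inhibitor of mTOR complex signalling, rose by 0.41 (limma, adjusted p = 0.00941) and PHGDH, the first enzyme of serine synthesis, by 0.38 (0.0173). Both ATF4 targets of the 9 genes, SLC7A11 and CHAC1, were among those not called.

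**Figure D4:**
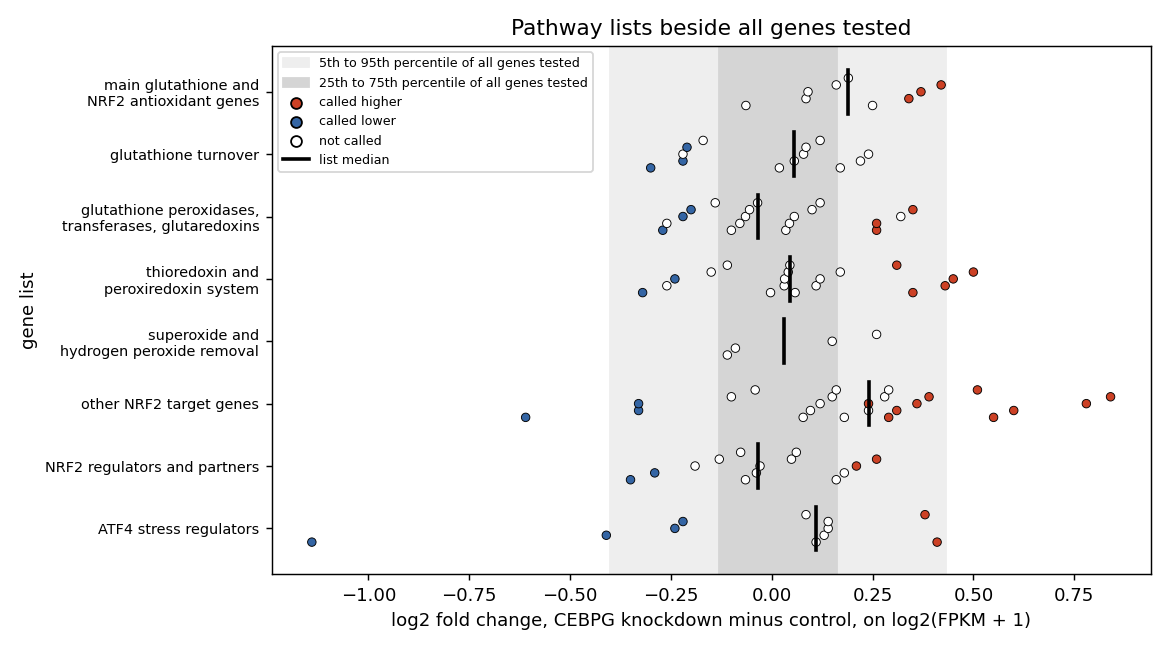
Each point is the log2 fold change (CEBPG knockdown minus control, on log2(FPKM + 1)) of a tested gene, filled where the adjusted p was under 0.05, with list medians as black bars and the spread of all 10968 genes tested in grey. The main genes and the other NRF2 targets have medians of 0.19 and 0.24, and the other 6 lists lie between -0.035 and 0.11.

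List counts were lower in the smaller fits. Over the 7 lists, 39 genes were called, against 5 without knockdown 1 and 6 without knockdown 2 (limma), where calls over all genes were 809 and 865 in place of 2288. Of the 23 called list genes named by rule, ATF5, BLVRB, ME1 and SQSTM1 kept their call in each of the 4 fits that left out 1 library. The other 19 lost it in at least 1 such fit, and none of the 23 changed sign.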

How the data were processed

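RNA-seq of 4 libraries labelled NB4 (2 control, 2 CEBPG knockdown) was analysed. Per the labels, an Illumina TruSeq kit was used on total RNA, and reads were processed with HISAT2 2.0.5 on hg38. The deposited FPKM, computed by the authors, came in a table of 29265 rows, each a RefSeq transcript. The quantifier is not given in the sources used here. FPKM hold no counts, so depth and counting error were unknown, and a value depends on the division of reads between transcripts.

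Rows without a value (183) or without a symbol (164, 0.250% of FPKM) were left out, and transcripts were summed per symbol. Genes averaging 1 FPKM or more over the 4 libraries were tested on log2(FPKM + 1) in limma 3.58.1 (R 4.3.3) with a mean trend, 2-sided, with Benjamini-Hochberg adjustment. Fold changes of low genes are understated on this scale. The fit was tested on simulated data.

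The genes and lists were chosen with earlier results of these data known. Named were the 10 genes, their transcripts with a mean of at least 1 FPKM, CEBPG, NFE2L2, KEAP1, BACH1, ATF4 and SLC3A2, and per list up to 4 called genes of largest change with a mean of at least 5 FPKM. Promoters were taken from RefSeq (GRCh38.p14) and positions from GENCODE 44.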

Additional observations from a re-analysis of the deposited data

How the results depend on the processing

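The fit was repeated with a smaller pseudocount (0.1), without the filter or with a stricter one (5 FPKM), after median-ratio scaling or a scaling to one sum, without the mean trend, with a replicate block, on single transcripts, and with every library omitted in turn. With no filter on low values 882 of all genes were called in place of 2288, 1 of the 9 main genes (TXNRD1) in place of 3, and 11 list genes in place of 39; NQO1 (0.34) and SRXN1 (0.42) lost their calls. Transcripts gave 25 calls over all and 0 for the 9, with log2 fold changes, read from the most abundant transcript of each gene, of 0.28 for NQO1 (NM_000903), 0.40 for TXNRD1 (NM_182729) and 0.42 for SRXN1 (NM_080725). Without a mean trend 21 list genes were called. With 1 library left out the counts ranged from 809 to 1931 over all, from 0 to 3 for the 9 and from 5 to 35 for list genes, and log2 fold changes from 0.26 to 0.43 for NQO1, 0.34 to 0.41 for TXNRD1, 0.32 to 0.52 for SRXN1, -0.13 to 0.31 for CHAC1, 0.064 to 0.25 for SLC7A11, 0.16 to 0.34 for GCLC, -0.11 to -0.014 for GCLM, 0.038 to 0.13 for GSS and 0.13 to 0.24 for GSR. Except for CHAC1 without control 2, none of the 9 gene values, or of their most abundant transcripts, changed sign. The lesser transcripts NM_001308253 of GCLM (0.64) and NM_182742 of TXNRD1 (-0.28) had the opposite sign to their gene. The cause of these shifts was not tested.

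With the replicate block 3440 genes and 5 of the 9 were called, GCLC (0.25) and GSR (0.19) among them, and 49 list genes. The labels name nothing that same-numbered libraries share, and their deviations correlated at 0.101, so the numbers were not taken as pairs. Of the called genes, 52.1% were higher, against 48.4% after median-ratio scaling and 46.7% with columns scaled to one sum, and this share was 62.9% without control 1 and 43.2% without control 2. Under a sum to one the KEAP1 value of -0.16 had an adjusted p of 0.0454 (limma). With 2 libraries a group, the median standard error over all genes tested was 0.0789 on the log2 scale.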

Other observations

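Ferritin, the iron store whose 2 chains are known NRF2 targets, was among the most abundant products in the table. These genes were chosen after their values were seen. FTL was at 3375.7 and 2969.5 FPKM in controls, compared with 4700.6 and 4577.4 FPKM upon knockdown, and FTH1 at 1705.7 and 1589.4 FPKM and then 2205.8 and 2121.9 FPKM. Both knockdown libraries were higher for each chain, with log2 fold changes of 0.55 (limma, adjusted p = 0.0072) and 0.39 (0.0122). The adjusted p was 0.108 and 0.164 without knockdown 1 and 0.083 and 0.112 without knockdown 2, and 0.123 and 0.116 with no filter on low values (limma). Both genes have many near-identical pseudogene copies, so their values are uncertain.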
